A study of Mus musculus with 34 samples.

Results

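Jun, JunB and JunD are the 3 Jun members of AP-1, and the loci described here are the genomic places where at least 1 of them had a ChIP-seq peak in TGEMs treated with KLA. TGEMs are thioglycollate-elicited macrophages from the mouse peritoneum. KLA, the lipid core of a bacterial endotoxin, stimulates them through TLR4. The Jun list held 17480 peaks, the JunB list 13375 and the JunD list 31640, which is 62495 of the 596383 peaks in the 30 lists of the series. Merging all peaks that shared 1 bp or more gave 33339 loci in 7 classes: bound by all 3 members, by one of the 3 pairs, or by 1 member only. Merging the KLA peaks of all 6 AP-1 monomers of this strain gave 43239 loci.

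The TGEMs came from male C57Bl/6EiJ mice as the labels write the strain (C57BL/6J in the study's methods) and were aged 8 weeks, and the cells received 100 ng/mL KLA for 1 h. Each monomer was pulled down with its own antibody, and the authors combined the replicate experiments of a condition into 1 list, so there was no test between replicates and no p-value is given. Peak lists hold no RNA levels, so cell type markers could not be read from them. The lists of Fos, FosL2, ATF3, PU.1 and CEBPa after the same KLA treatment were used as partners. Lists from TGEMs of male Balb/cJ mice, also aged 8 weeks and with 100 ng/mL KLA for 1 h, were used as a second strain. Lists from C57Bl/6EiJ TGEMs with Veh (PBS) were used as the resting state. Intervals in the text are 95% intervals that cover the counting of loci only, not the variation between mice or experiments.

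AP-1 is a family of leucine zipper proteins that bind DNA as pairs. Jun members can pair with themselves, with each other and with Fos members, whereas Fos members need a Jun partner to bind DNA, and ATF3 can pair with Jun members. A Jun:Fos pair binds best to the TRE, TGACTCA, while pairs with ATF members also bind the CRE, TGACGTCA, which is 1 base longer. In macrophages JunB and Fos are immediate early genes that TLR4 signals induce within the hour, JunD is made at rest, and PU.1 and CEBPa are lineage factors that bind many of the same enhancers.

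The locus that leads each class, by the mean percentile of its counts over the members bound there, is shown to let the classes be compared in sequence. Each line gives 160 bases around the centre of the locus, or 105 for Pcyt1a after UTR bases were removed, from the mm10 build (GRCm38) with the nearest protein-coding gene, and capitals mark matches on either strand to the motif words spelled out with the motif results.
Itga5 (Jun+JunB+JunD), chr15:103370580-103370739, plus strand: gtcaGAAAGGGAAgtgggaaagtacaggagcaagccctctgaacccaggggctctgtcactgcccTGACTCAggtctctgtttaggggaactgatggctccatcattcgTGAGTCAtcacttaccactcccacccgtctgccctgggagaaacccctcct
Pfkfb3 (Jun+JunB), chr2:11429718-11429877, plus strand: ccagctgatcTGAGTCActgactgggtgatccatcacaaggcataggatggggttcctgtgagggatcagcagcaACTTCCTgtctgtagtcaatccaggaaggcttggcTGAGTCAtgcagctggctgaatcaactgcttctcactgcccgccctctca
Cdc42bpg (Jun+JunD), chr19:6297726-6297885, plus strand: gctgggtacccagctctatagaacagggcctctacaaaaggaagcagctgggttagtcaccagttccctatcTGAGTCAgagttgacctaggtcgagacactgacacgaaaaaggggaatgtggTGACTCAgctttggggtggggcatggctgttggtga
Mrpl39 (JunB+JunD), chr16:84627220-84627379, plus strand: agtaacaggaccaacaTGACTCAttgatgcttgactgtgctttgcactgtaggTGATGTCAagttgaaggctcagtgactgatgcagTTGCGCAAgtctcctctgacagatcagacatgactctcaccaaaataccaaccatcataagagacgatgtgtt
Pcyt1a (Jun only), chr16:32430816-32430920, plus strand: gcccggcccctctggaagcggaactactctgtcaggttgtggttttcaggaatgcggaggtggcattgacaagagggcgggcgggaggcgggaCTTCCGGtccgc
Lctl (JunB only), chr9:64092262-64092421, plus strand: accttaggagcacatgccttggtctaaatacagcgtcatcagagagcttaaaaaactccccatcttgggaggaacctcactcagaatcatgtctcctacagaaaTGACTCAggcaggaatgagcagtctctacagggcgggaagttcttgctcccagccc
Itpkb (JunD only), chr1:180302711-180302870, plus strand: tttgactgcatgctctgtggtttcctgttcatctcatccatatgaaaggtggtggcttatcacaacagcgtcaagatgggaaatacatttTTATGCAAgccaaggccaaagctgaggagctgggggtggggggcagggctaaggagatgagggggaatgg
The lines for Itga5, Pfkfb3 and Cdc42bpg hold 2 TREs each, and those for Mrpl39 and Lctl hold 1. The Mrpl39 line also holds TGATGTCA, a CRE with 1 base changed, and a CEBP word. The Pcyt1a line has no AP-1 word and holds a promoter word of Ets factors, and the Itpkb line has only a CEBP word.

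The 3 lists differed in how many tags their peaks held. The count that the authors deposited with each peak had a median of 31 for Jun (16 to 145), 34 for JunB (16 to 202) and 277 for JunD (120 to 1099), so the weakest JunD peak held more than most Jun and JunB peaks. Counts were therefore turned into percentiles within a list and never compared between lists, and the classes were also formed from the 13375 strongest peaks of each list. How the differing depths of the lists and the affinities of the antibodies bear on the classes was not tested.

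Most loci of Jun and of JunB also carried JunD, and most loci with a single member were JunD loci. All 3 members were present at 9933 loci, 29.8% of the total (29.3 to 30.3). Jun and JunD shared 6413 loci without JunB, 19.2% (18.8 to 19.7), and JunB and JunD shared 2660 without Jun, 7.98% (7.69 to 8.27). Jun and JunB met without JunD at 121 loci, 0.363%. JunD was alone at 12574 loci, 37.7% (37.2 to 38.2), whereas Jun was alone at 987 and JunB at 651.

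Seen from each list, 93.7% of Jun loci and 94.2% of JunB loci had a JunD peak, 57.6% of Jun loci had JunB, and 39.8% of JunD loci had neither other member. At equal list lengths this order turned. JunB then had the largest share without another member, 22.6%, against 13.8% for Jun and 9.06% for JunD, and the single-member classes held 1839 Jun, 3017 JunB and 1210 JunD loci of 18944. With whole lists JunD only was the largest class, and at equal lengths the class of all 3 was, with 8256 loci or 43.6%. In Balb/cJ at equal lengths (11317 peaks a list) the order was another one again, with 30.7% of Jun, 12.5% of JunB and 11% of JunD loci without another member.

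**Figure D1:**
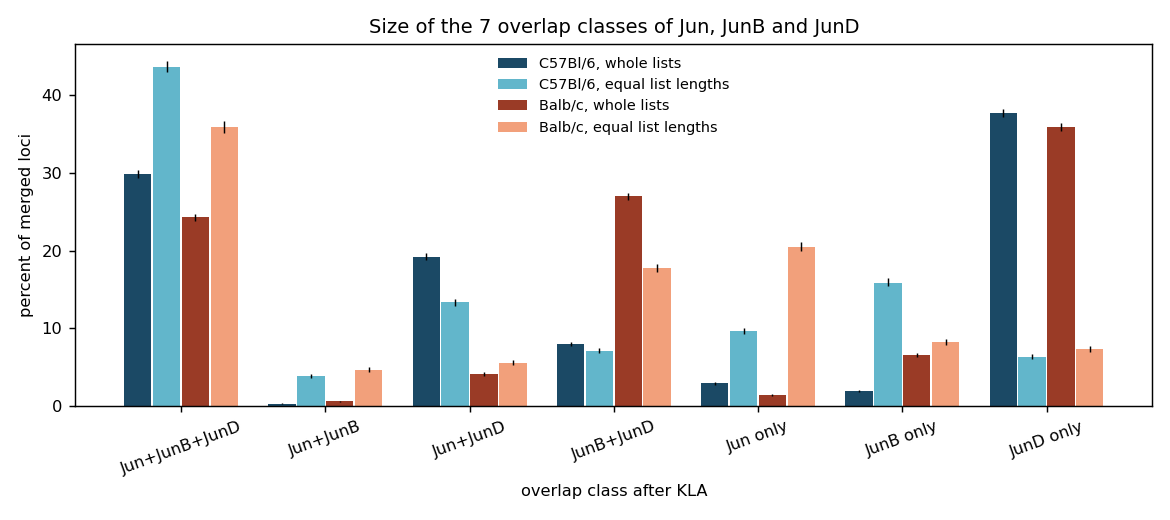
Percentage of merged loci in each of the 7 overlap classes of Jun, JunB and JunD after KLA, for whole lists and for lists of equal length in C57Bl/6EiJ and Balb/cJ TGEMs. With whole C57Bl/6EiJ lists JunD only is the largest class (37.7%, 12574 loci), and at equal lengths the class with all 3 members is (43.6%, 8256 loci).

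The classes also differed in strength. At loci with all 3 members the median percentile of the count was 67 for Jun, 60.5 for JunB and 81.9 for JunD. The single-member loci lay low in their lists, with medians of 12.9 for Jun only, 9.68 for JunB only and 23.4 for JunD only. The median width of a locus was 286 bp for all 3 and 227 bp for JunD only. Strength and width thus moved with the class, and comparisons of features between classes are given below also at matched rank.

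Loci with Jun and without JunB lay at gene starts more often than loci with JunB. A transcription start site (TSS) of a protein-coding gene was within 1 kb at 16% of all 33339 loci. It was within that distance at 36.6% of Jun-only loci (33.6 to 39.6), 20.4% of Jun+JunD loci (19.4 to 21.4) and 19.1% of JunD-only loci (18.4 to 19.8). The JunB classes had fewer: 9.42% of loci with all 3 (8.86 to 10), 9.44% of JunB+JunD loci, 9.68% of JunB-only loci and 12.4% of the 121 Jun+JunB loci. The difference between Jun+JunD and JunB+JunD was 10.9 percentage points (9.41 to 12.4). JunB-only loci and loci with all 3 differed by 0.254 points, with an interval from -1.87 to 2.83 that includes 0.

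The median distance to the nearest TSS was 5.98 kb for Jun only, 11.6 kb for JunD only and 12 kb for Jun+JunD, against 17 to 18.4 kb for the classes with JunB. Introns held 44.1% and intergenic sequence 43.7% of the loci with all 3. At equal list lengths 29.1% of Jun-only loci were at a TSS, compared with 10.4% of JunB-only and 13.9% of JunD-only loci. At matched rank, Jun loci with JunB were at a TSS in 10.1% and those without in 19.3%, a difference of -9.24 points (-10.5 to -8.01). Among JunD loci the values were 10.9% with JunB and 16.9% without. Jun loci had 16.4% with JunD and 35.6% without (-19.2 points, -23.7 to -14.7). This split used 7 of the 10 bins of the Jun list by count, so its width is not compared with that by JunB. The other splits went the opposite way: 19.3% of JunD loci with Jun and 14.4% without, 10.7% of JunB loci with Jun and 8.54% without. JunB loci had 11.4% with JunD and 9.19% without, with an interval that includes 0 (-0.594 to 4.95).

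The sequences of the classes were compared by exact words on both strands of the central 200 bp. With whole lists the JunB classes held more TREs, and Jun-only and Jun+JunD loci held more CREs and more GC-rich promoter words. The TRE word TGACTCA was found at 32.2% of all loci and at 3.18% of 33334 genomic windows matched on GC content. It was found at 43.8% of loci with all 3 (42.8 to 44.8), 36.1% of JunB+JunD loci and 34.9% of JunB-only loci, against 27.3% of Jun+JunD, 25.9% of JunD-only and 14.9% of Jun-only loci (12.8 to 17.3). The JunB-only and JunB+JunD shares were further apart at equal lengths, 33% and 42.8%, and in Balb/cJ, 26.2% and 33.6%. The order of the classes was not kept at equal lengths. There Jun+JunD loci had the TRE at 33.8%, above JunB only and Jun+JunB (27.1%), and JunD-only loci had it at 31.6%.

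The CRE word TGACGTCA was rare, at 1.47% of all loci and 0.174% of the windows. It was present at 2.92% of Jun+JunD loci (2.53 to 3.36; 187 loci) and 0.714% of JunB+JunD loci (19 loci), or -2.2 points for JunB+JunD minus Jun+JunD (-2.71 to -1.65). Jun-only loci held it in 3.24% (32 of 987) and JunB-only loci in 0.614% (4 of 651). The difference did not rest on gene starts alone. At a TSS the word was present at 8.96% of Jun+JunD loci (117 of 1306) and 1.99% of JunB+JunD loci (5 of 251), and away from a TSS at 1.37% and 0.581%.

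The CRE variant TGACATCA, which differs from the CRE by 1 base, was at 4.69% of all loci, at 5.71% of Jun+JunD and 3.42% of JunB+JunD loci, and at 0.936% of windows. The Sp1 word CCCCGCCC, which marks GC-rich promoters, was at 4.07% of all loci, at 14.8% of Jun-only and 2.46% of JunB-only loci. JunD-only loci had the CRE at 1.18%, 0.219 points from all 3 with an interval that includes 0 (-0.0564 to 0.487), and Sp1 at 4.31%, which became 1.65% at equal lengths against 2.18% with all 3. The PU.1 word ACTTCCT was at 19.6% of all loci and between 13.6% and 20.5% in the classes, against 5.03% of windows. The CEBP word TTGCNNAA or its complement was at 16.2% of all loci, between 11.4% and 17.5% in the classes and 7.26% of windows. The lineage words therefore varied less between classes than the AP-1 words did. The other words marked in the sequences are GAAANNGAA for IRF and CCGGAAG for Ets promoters.

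At matched rank the TRE share was 41.6% at Jun loci with JunB and 29.3% at those without, a difference of 12.3 points (10.5 to 14.1). For JunD loci the shares were 36% with JunB and 29.7% without. The CRE went the other way, at 0.9% of Jun loci with JunB and 2.95% of those without. Jun loci split by JunD in the same directions, with the TRE at 32.3% with JunD and 19% without (13.3 points, 9.55 to 17). Their CRE shares were 1.98% and 4.64%. For JunB loci with and without JunD the intervals of both differences included 0 (TRE -6.98 to 2.71, CRE -1.67 to 1.11). Between JunD loci with and without Jun, the TRE shares were 30.5% and 31.1%, and the interval of the difference included 0 (-0.627 points, -2.62 to 1.36).

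Fos peaks were more frequent at JunB+JunD than at Jun+JunD loci, and at JunB-only than at Jun-only loci. Fos, a partner of Jun members that is induced together with JunB, had a peak at 65.1% of all loci. The share was 96.8% at loci with all 3 (96.4 to 97.1), 81.9% at JunB+JunD (80.4 to 83.3) and 68.6% at Jun+JunD (67.5 to 69.8), so the pair with JunB exceeded the pair with Jun by 13.3 points (11.4 to 15.1). Of the single-member classes, JunB only had Fos at 41.5%, JunD only at 39.3% and Jun only at 23.3%. Jun only minus JunB only came to -18.2 points (-22.8 to -13.5). The 121 Jun+JunB loci had Fos at 68.6% (59.9 to 76.2).

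Strong peaks met Fos more often than weak ones, and between peaks of like strength those with another Jun member, JunB or not, still had more Fos. At matched rank, Jun loci with JunB had a Fos peak in 94.6% and those without in 72.3%, 22.3 points apart (21.1 to 23.5), where the unmatched shares were 96.4% and 62.6%. JunD loci had one in 80.7% with JunB and 62.3% without, 18.4 points apart (16.9 to 20). JunD loci with and without Jun were closer, at 68.6% and 65.1%, or 3.48 points (2.11 to 4.84). Split by JunD, Jun loci had Fos in 78.8% with JunD and 36.8% without, 42 points apart (37.4 to 46.5). That split used 7 of the 10 bins of 10% of the Jun list, and the split by JunB used all 10. Their widths are therefore not compared. Among JunB loci the shares were 86.7% with JunD and 52.8% without (5 bins), and 94.1% with Jun and 84.4% without (9 bins). More Fos was therefore not particular to loci with JunB. In the weakest 10% of the Jun list, 86.4% of loci with JunB and 40.2% without had Fos, and in the strongest 10% the shares were 99.6% and 92.4%.

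**Figure D2:**
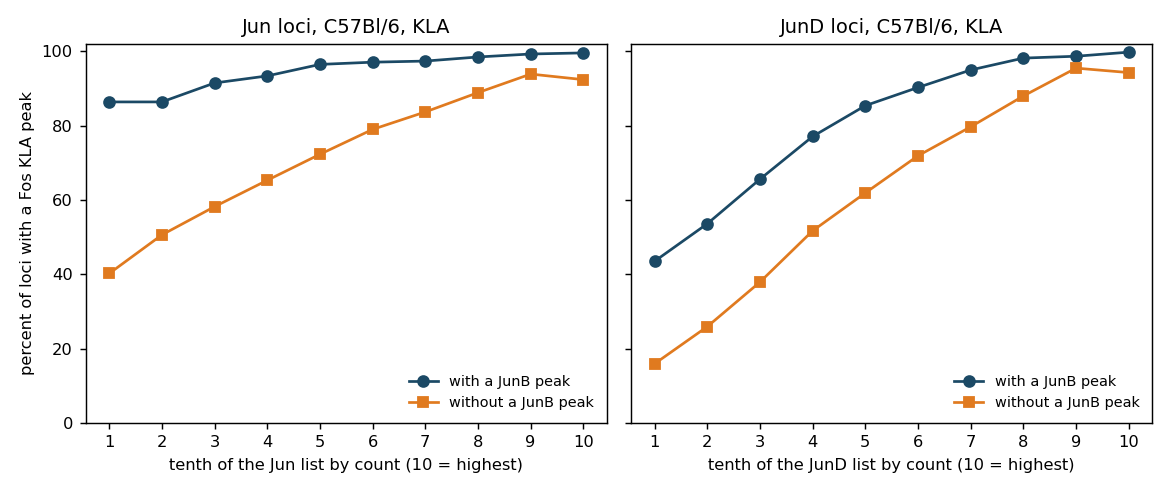
Percentage of loci with a Fos KLA peak in bins of 10% of the Jun list and of the JunD list, from weakest to strongest count, for loci with and without a JunB peak. No intervals are drawn. Loci with JunB lie above those without in the weakest 10% of the Jun list (86.4% and 40.2%) and in the strongest (99.6% and 92.4%).

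FosL2, another Fos member, had a peak at 30.1% of all loci, at 60.1% of loci with all 3 and at 28% of Jun+JunD and 27.4% of JunB+JunD loci. JunB+JunD minus Jun+JunD came to -0.622 points, with an interval from -2.62 to 1.42 that includes 0. At matched rank Jun loci had FosL2 at 53% with JunB and 33.5% without.

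ATF3, the AP-1 partner with the longest list, was at 85.4% of all loci and at 99.3% of loci with all 3. It was at 94.1% of Jun+JunD and 91.9% of JunB+JunD loci, so here the pair with Jun was ahead (-2.19 points for JunB+JunD minus Jun+JunD, -3.42 to -1.04). JunD only had ATF3 at 72.5%, Jun only at 56.9% and JunB only at 54.5%. A locus without Fos, FosL2 or ATF3 was seen 6 times among the 9933 with all 3 (0.0604%), and at 35.4% of Jun-only, 31% of JunB-only and 20% of JunD-only loci.

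PU.1, the main lineage factor of macrophages, had a peak at 59.3% of all loci, and CEBPa, a factor of the myeloid lineage, at 33.4%. Both were most frequent where all 3 members met, at 75.2% and 52.7%. PU.1 was at 62.5% of Jun+JunD and 54.6% of JunB+JunD loci, and at 41.2% of Jun-only and 30.9% of JunB-only loci, so on this measure the classes of JunB without Jun were lower than those of Jun without JunB. For JunB+JunD minus Jun+JunD the difference was -7.93 points (-10.2 to -5.7). At matched rank Jun loci had PU.1 at 70.6% with JunB and 64.9% without, 5.7 points apart (3.99 to 7.41). JunD loci had it at 60.3% with JunB and 59.8% without, a difference of 0.468 points (-1.27 to 2.21). Split by Jun, JunD loci had PU.1 at 63.6% with Jun and 57.1% without (6.52 points, 4.48 to 8.57). JunB loci had it at 70.7% with Jun and 54.8% without (15.9 points, 12.7 to 19.1). None of these splits sets JunB without Jun directly against Jun without JunB.

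Read from the partners' side, 39.4% of the 24365 Fos peaks, 56% of the 10619 FosL2 peaks and 26.8% of the 36745 ATF3 peaks lay at loci with all 3 Jun members. No Jun member was found at 10.8% of Fos, 5.82% of FosL2 and 22.4% of ATF3 peaks, nor at 51.1% of PU.1 and 24.7% of CEBPa peaks. JunD was at 86.7% of Fos, 92.7% of FosL2 and 74.8% of ATF3 peaks.

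Where all 3 members were bound, their counts ranked together. Over the 9933 loci, Spearman's rho was 0.836 between Jun and JunD, 0.816 between JunB and JunD and 0.746 between Jun and JunB. Among partners, Fos ranked more like JunB (0.804) and JunD (0.8) than like Jun (0.691), over 9613 loci. ATF3 ranked more like JunD (0.859) and Jun (0.822) than like JunB (0.749), over 9860 loci. In Balb/cJ Fos was again closest to JunB (0.913, against 0.857 with Jun and 0.874 with JunD), but ATF3 was not closer to Jun or JunD (0.817 with Jun, 0.817 with JunB and 0.802 with JunD). FosL2 lay between 0.701 with Jun and 0.796 with JunD. PU.1 (0.126 to 0.153) and CEBPa (0.2 to 0.222) hardly ranked with any member. These are descriptions over loci of the same cells, which share chromatin, input and width.

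**Figure D3:**
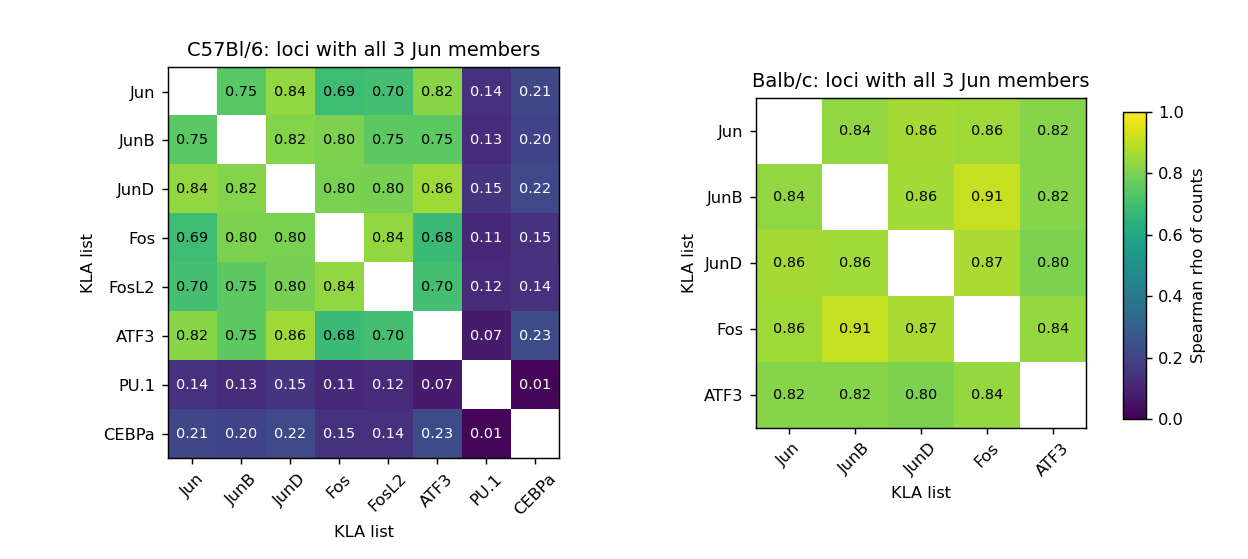
Spearman's rho between the counts of the 3 Jun members and the 5 partners at loci with all 3 Jun members after KLA. The AP-1 monomers form a block of high values (0.68 or more), with PU.1 and CEBPa apart.

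Within the class of all 3, loci were ordered by the difference between their percentiles, and the outer 993 at each end were set side by side. Loci where Jun ranked above JunB had fewer TREs (31.4% against 49.4% where JunB ranked above Jun, with 43.8% over the class). They had more CREs (2.82% against 0.504%), more CRE variants (9.26% against 2.32%) and more TSSs (12.2% against 6.95%). Fos peaks were at 95.4% and 98.6%. Jun against JunD gave a like contrast. Where Jun ranked above JunD, 29.5% had a TRE and 15.3% a TSS, against 51.1% and 7.85% where JunD ranked above Jun. Between JunB and JunD the TRE shares were 42.1% where JunB ranked higher and 39.3% where JunD did, and the TSS shares 8.86% and 8.76%. The contrast was thus not particular to Jun against JunB. The words that separated the classes thus also varied with rank inside the shared class.

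The order of Jun against JunB was weakly kept in the second strain, and that of JunB against JunD less so. The median difference of percentiles between Jun and JunB in Balb/cJ was 6.35 at the Jun-high loci (556 with all 3 there) and -4.92 at the JunB-high loci (491). Its sign was that of C57Bl/6EiJ at 62.2% and 63.3% of them. Over all 5517 loci with all 3 in both strains, the rho of this difference between strains was 0.171, that of Jun minus JunD 0.111 and that of JunB minus JunD 0.0767. At the 993 loci where JunD ranked furthest above JunB, the sign in Balb/cJ was the same at 48.5% of the 565 with all 3 there. For the count of 1 member across strains rho was 0.792 for Jun, 0.757 for JunB and 0.832 for JunD.

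Balb/cJ TGEMs gave 37010 loci, of which 8986 (24.3%) had all 3 members. There JunB had more peaks than Jun (21667 and 11317), and the pair classes changed places: JunB+JunD held 9975 loci and Jun+JunD 1536. A Balb/cJ peak of any Jun member was present at 78.5% of the C57Bl/6EiJ loci, from 95.3% of those with all 3 to 56.2% of Jun-only and 49.3% of JunB-only loci. Class identity carried over less. It was the same at 55.5% of loci with all 3, 33.4% of JunB+JunD and 26.7% of JunD-only loci, but at 5.86% of Jun+JunD, 6.14% of JunB-only and 2.13% of Jun-only loci (21 of 987). Jun+JunD loci were most often JunB+JunD in Balb/cJ (31.7%), and Jun-only loci most often had no member (43.8%) or JunD only (25.2%).

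Start sites, CREs, TREs and Fos differed between the pair classes in the same direction in Balb/cJ, and ATF3, PU.1 and CEBPa did not. Start sites were at 42.8% of Jun+JunD and 9.91% of JunB+JunD loci there, CREs at 8.14% and 0.602%, and TREs at 20.8% and 33.6%. The Balb/cJ Fos list met 86.3% of Jun+JunD and 93.5% of JunB+JunD loci. ATF3 turned, with the Balb/cJ list at 86.1% of Jun+JunD and 89.1% of JunB+JunD loci. The C57Bl/6EiJ lists of PU.1 (53.8% and 57.3%) and CEBPa (21% and 34.1%, where the C57Bl/6EiJ pair classes had 34.8% and 30%) also turned. Of the single-member classes, JunB only had Fos at 71.9%, Jun only at 68% and JunD only at 57.8%, so that Jun only was above JunD only here and below it in C57Bl/6EiJ. At matched rank, Jun loci with JunB and without it had a Fos peak in 98.1% and 87.4%, and a TSS in 14% and 43.3%. JunD loci with and without Jun had a TSS in 18.8% and 19.5% and a Fos peak in 89.8% and 79.3%.

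At rest, at least 1 Jun member already had a peak in the Veh lists at 53.5% of the KLA loci. The share was 75.6% for all 3, 59.6% for Jun+JunD, 47.3% for JunB+JunD, 37.6% for JunD only, 35.4% for Jun only and 19.8% for JunB only. JunB itself had 463 peaks with Veh and was there at no more than 2.34% of any class. PPARg, a nuclear receptor of lipid metabolism, had a Veh peak at 48.2% of loci, from 66.2% with all 3 to 23.7% of JunB only. JunB+JunD and JunB-only loci thus had resting peaks less often than Jun+JunD and Jun-only loci. The Veh lists held 15548 Jun and 19653 JunD peaks, so the resting peaks of Jun members were mainly those of Jun and JunD. The classes were themselves defined by Jun and JunD peaks after KLA, so these shares are not independent of the classes. They were also not matched on rank.

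The leading loci of the classes show how strong peaks can lack a member. Near Itga5, an integrin subunit, the locus at chr15:103370515-103370803 had counts of 120 for Jun, 202 for JunB and 1086 for JunD, each over the 99th percentile, with FosL2 (168) and ATF3 (471) but no Fos peak in the list. The Pfkfb3 locus at chr2:11429657-11429912 had 134 for Jun and 199 for JunB and no JunD peak. It lay 71902 bp from the start of Pfkfb3, which encodes a regulator of glycolysis. The Cdc42bpg locus had 129 for Jun and 1099 for JunD, the highest JunD count, without JunB. The Mrpl39 locus, 108442 bp from the start of that gene, had 167 for JunB and 1087 for JunD without Jun. All 9 leading loci of the pair classes had all 3 members in Balb/cJ, where for example the missing JunD at Pfkfb3 had a count of 254. At Cdc42bpg the missing JunB had 220, and at Mrpl39 the missing Jun had 148. At the top of the pair classes, then, the missing member was called in the other strain.

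Positions relative to a start are negative before it. Another leading pair locus lay at -193 bp from the start of Itgax, which encodes CD11c, with counts of 90 for JunB and 800 for JunD. The strongest single-member loci were weaker. The first of Jun only lay at -25 bp from Pcyt1a, the rate-limiting enzyme of phosphatidylcholine synthesis made through choline, with a count of 54 and no ATF3 peak. The first of JunB only, at -24805 bp from Lctl, had 54 and none of the 5 partners. The first of JunD only, at -27694 bp from Itpkb, a kinase of inositol phosphates, had 781, the 97.53 percentile, with Fos (163) and ATF3 (200).

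The genes of AP-1 itself had different sets of Jun members. All 10 AP-1 genes considered had a JunD locus within 5 kb, 9 had Jun and 8 had JunB, and 41.7% of their 48 loci were JunD only, near the 40.2% of loci at all protein-coding genes. The start-site loci of Jun and Jund are shown since both hold all 3 members with Jun ranked far above JunB, and capitals again mark the motif words.
Jun (Jun+JunB+JunD), chr4:95052223-95052349, plus strand: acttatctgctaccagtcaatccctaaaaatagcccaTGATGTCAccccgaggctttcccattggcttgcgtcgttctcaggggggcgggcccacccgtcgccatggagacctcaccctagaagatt
Jund (Jun+JunB+JunD), chr8:70698729-70698888, plus strand: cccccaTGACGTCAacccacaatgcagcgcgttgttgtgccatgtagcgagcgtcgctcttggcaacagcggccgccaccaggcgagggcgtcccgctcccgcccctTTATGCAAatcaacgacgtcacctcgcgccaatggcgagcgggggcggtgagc
The Jun locus holds a CRE variant written as TGATGTCA, its complement, and the Jund locus a full CRE and a CEBP word, and neither printed stretch has a TRE. The Jun line was trimmed to 127 bases where a UTR began. At Jun (-48 bp) the counts were 77 for Jun, 31 for JunB and 482 for JunD, the 96.6, 43.6 and 81.9 percentiles, with ATF3 (173) and no Fos peak. At Jund (-140 bp) they were 71, 24 and 661, the 94.9, 23 and 93.7 percentiles, with ATF3 (134) and a weak Fos peak (27). Both had all 3 members in Balb/cJ.

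Junb differed from these. Of its 8 loci 6 were JunD only, among them the one at -92 bp (324, the 60.2 percentile), and all 3 members met at -2413 bp with 27 for Jun, 32 for JunB and 352 for JunD. Fos had all 3 members at -5047 bp (37, 47 and 570), Jun and JunD at -1742 bp, and a weak JunB-only peak within the gene (18). Fosl2 had all 3 at its start (42, 38 and 480), Fosl1 had 2 JunD-only loci, and Fosb had 2 of JunD only and 1 of Jun only (27). Atf3 had 10 loci, 6 of them with all 3 members, the strongest 28010 bp after the start (76, 79 and 834). Batf and Jdp2, which encode smaller AP-1 proteins, had 5 and 9 loci.

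Cytokine and NFkB genes nearly all had peaks of every member, while ribosomal and proteasome genes had them less often. Of all 21911 protein-coding genes 41.1% had a locus of any member within 5 kb, 27.1% had Jun, 20.4% had JunB and 39.7% had JunD. Among 21 cytokine and chemokine genes 20 had Jun, 21 JunB and 21 JunD, and among 14 genes of NFkB subunits and inhibitors 14, 13 and 14. Of the 15 immediate early genes 14, 11 and 15 had them, and of the 10 MAP kinase phosphatases 10, 8 and 10. Start-site loci with all 3 lay at Il1b (78, 72 and 876 for Jun, JunB and JunD, at -161 bp), Tnf (58, 71 and 707), Cxcl2 (74, 95 and 626), Nfkbia (76, 80 and 748) and Tnfaip3 (78, 69 and 649). Il6 had a single locus, at -231 bp, with 48, 33 and 398.

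Of 17 interferon response genes with an annotation, 10 had Jun, 8 JunB and 16 JunD. At 5 of these genes (29.4%) JunD-only loci were all there was, against 11.3% of all protein-coding genes. These shares have unlike bases, since 94.1% of the interferon genes and 41.1% of all protein-coding genes had any locus. Of the 37 interferon loci 37.8% were JunD only, near the 40.2% of loci at all protein-coding genes. Examples of genes with JunD-only loci alone were Ifit1, where JunD had a count of 290 at -37 bp, and Mx1, with 2 JunD-only loci. Ifnb1, the gene of interferon beta, had Jun and JunD at its start (24 and 271), and all 3 further upstream. At equal list lengths the interferon counts were 8, 8 and 7 (47.1%, 47.1% and 41.2%), so JunD did not lead there. All protein-coding genes then had 21.7%, 20.3% and 20.4%.

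Of 79 ribosomal protein genes 32 had Jun (40.5%, 30.4 to 51.5), 10 had JunB (12.7%, 7.02 to 21.8) and 43 had JunD (54.4%). Of 39 proteasome genes 15 had Jun, 7 JunB and 28 JunD. The JunB share there, 17.9% (8.98 to 32.7), was near the 20.4% of all protein-coding genes, a value that the ribosomal interval for JunB also includes. At equal lengths the ribosomal counts became 17, 10 and 11 (21.5%, 12.7% and 13.9%), and the proteasome counts 11, 7 and 10 (28.2%, 17.9% and 25.6%). All protein-coding genes then had 21.7% for Jun, 20.3% for JunB and 20.4% for JunD. The ribosomal share for Jun was near that of all genes. In Balb/cJ whole lists ribosomal genes had 13 for Jun (16.5%), 19 for JunB (24.1%) and 61 for JunD (77.2%). The shares of all protein-coding genes in Balb/cJ were 22.7%, 28.5% and 45.8%. JunB was at 28.2% of proteasome genes there, against 28.5% of all protein-coding genes. In the remaining lists, 18 macrophage lineage and surface genes had 16, 14 and 17, the 18 lysosome genes 14, 13 and 17, and the 14 lipid handling genes 11, 9 and 14. Genes of the lists differ in length, and how that bears on the counts was not tested.

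**Figure D4:**
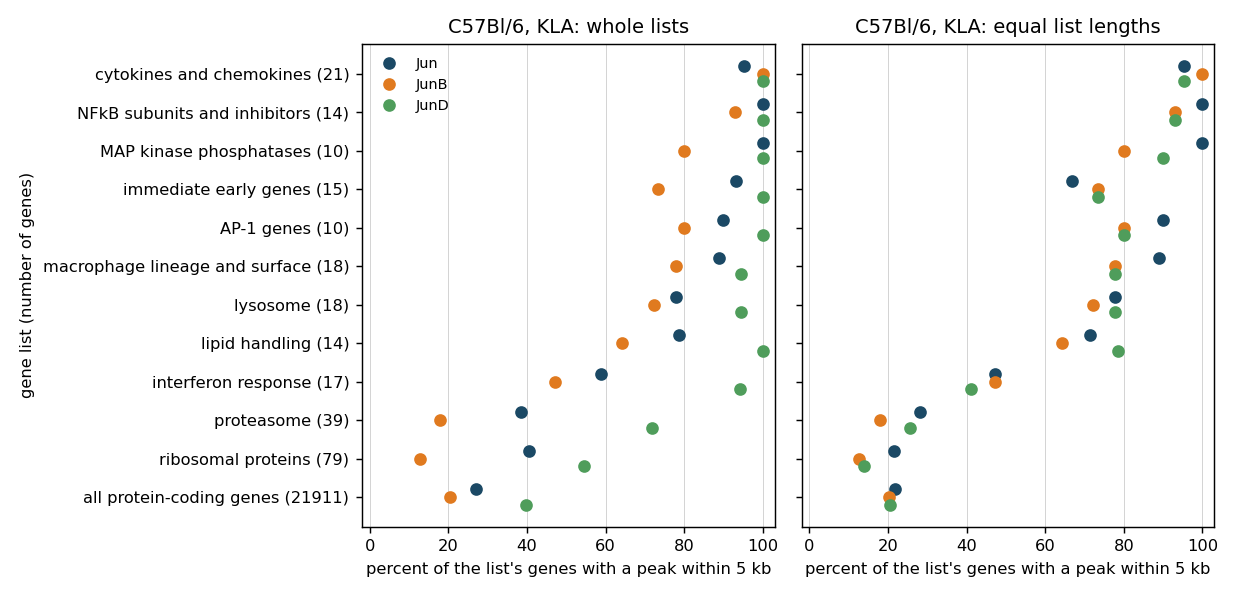
Percentage of the genes of each list with a Jun, JunB or JunD locus within 5 kb, for whole lists and lists of equal length, beside all protein-coding genes. Cytokine and NFkB genes are near 100% for every member, and ribosomal protein genes run from 12.7% for JunB to 54.4% for JunD in whole lists.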

How the data were processed

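ChIP-seq of AP-1 monomers and partners in TGEMs was analysed from peak lists of the series, which has 34 samples. The 4 input samples had no list among the 30 used, and 17 lists were read here. Per the labels and methods, reads were aligned by the authors using Bowtie2, to mm10 or, for Balb/cJ, to a genome of that strain whose coordinates were moved back onto mm10. HOMER called the peaks against treatment-matched input, and only peaks with an IDR under 0.05 between replicate experiments were kept. The authors deposited for each peak a whole-number count, not scaled to depth, and a score that is the scaled IDR. How the counts of replicates were combined is not given in the sources used here. The score served only to order peaks of equal count, such as the 654 Jun peaks with a count of 23 where that list was cut to equal length.

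Peaks were merged at 1 bp of overlap, and a partner was present where its peak overlapped the locus by 1 bp. Genes were those of GENCODE on GRCm38, and a TSS was near within 1 kb. Sequences, those of Balb/cJ loci too, were read from the GRCm38 reference. Background windows had the GC content of the loci, to within bins of 2 points. Shares have Wilson intervals and differences Newcombe intervals. At matched rank, loci were compared within bins of 10% of a member's list that held at least 20 loci with and 20 without the other member, each bin was weighted by its number of loci, and the interval came from the summed binomial variances. The named loci were the 3 with the highest mean percentile in each class, all loci within 5 kb of the 10 AP-1 genes, and genes of 10 fixed lists. The members and lists were chosen with earlier results of these data known, and the CRE variant and some Balb/cJ values were added after seeing these results. Python 3.11.15, numpy 2.4.6, scipy 1.17.1, pandas 2.3.3, pysam 0.24.0 and matplotlib 3.10.9 were used. Merging, intervals and motif search were tested on simulated data. The alternatives were other overlap rules, equal list lengths, the strongest 50% of each list, a common count threshold, other TSS and motif windows, and the Balb/cJ lists.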

Additional observations from a re-analysis of the deposited data

How the results depend on the processing

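Each condition had 1 list with replicates combined, so no replicate could be left out. No paired analysis was possible because the labels give no replicate numbers and no test was run. Of the directions compared across alternatives, these were kept in all 5: the TSS share was higher at Jun+JunD than at JunB+JunD loci, and the Fos share was higher at JunB+JunD than at Jun+JunD and higher with all 3 than at JunD only. Other directions turned in Balb/cJ. JunB+JunD outnumbered Jun+JunD, ATF3 was more frequent at JunB+JunD, and at matched rank the TSS difference between JunD loci with and without Jun went from 4.92 points to -0.628 (-2.14 to 0.881). The sizes of the classes depended on the processing. In the order all 3, Jun+JunB, Jun+JunD, JunB+JunD, Jun only, JunB only, JunD only, the strongest 50% of each list gave 5414, 28, 3038, 1159, 256, 86 and 6195 loci. Equal lengths gave 733, 2530, 1359, 1839, 3017 and 1210 for the 6 classes after the first. Balb/cJ gave 244, 1536, 9975, 543 and 2439 for the second to the sixth. A common count threshold of 128 kept 10 Jun, 91 JunB and 31212 JunD peaks and gave 2, 1, 7, 88, 0, 0 and 31115, because the JunD counts are higher throughout. The share of loci without another member was 7.94% for Jun with centres within 100 bp, 7.31% with 50% reciprocal overlap, 13.8% at equal lengths, 2.93% in the strongest 50%, 0 at the common threshold and 4.8% in Balb/cJ. In the same order it was 7.13%, 6.62%, 22.6%, 1.29%, 0 and 11.3% for JunB, and 41.2%, 40.9%, 9.06%, 39.2% and 99.7% for JunD up to the threshold. The TSS difference of 10.9 points became 5.77 at equal lengths, 6.18 in the strongest 50% and 32.9 in Balb/cJ. The Fos difference of 13.3 points became 4.83 with Fos cut to 10619 peaks, 7.09 at equal lengths, 5.87 in the strongest 50% and 7.25 in Balb/cJ. The rho of Jun with JunB was 0.698 at equal lengths, 0.672 after dividing by width and 0.836 in Balb/cJ, that of Jun with JunD 0.798, 0.777 and 0.864, and that of JunB with JunD 0.782, 0.753 and 0.862. The cause of these shifts was not tested. The low Jun and JunB counts, with medians of 31 and 34, limit what can be said of a missing peak.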
